A study of Mus musculus with 12 samples.

Results

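The 286 microRNA genes described here are those that the array annotation gives as the only gene of a probe set and that lie outside the microRNA clusters delivered in the study. They were chosen by gene symbol alone, among 19938 genes with a probe set of their own. A gene qualified if its symbol begins with Mir and a digit or with Mirlet, and 11 genes of the Mir302 to Mir367 and Mir106a to Mir363 groups and the microRNA host genes were left out. Mir713 alone had more than 1 probe set, and the one with the highest mean was used. Another 61 microRNA probe sets name several genes and were not analysed here.

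RNA came from mouse embryonic fibroblasts of an OG2 by 129/sv cross. OG2 mice carry a fluorescent reporter under Oct4 regulatory sequence. All cells went through 2 rounds of retroviral infection and were then kept in embryonic stem cell medium. The cells of 6 arrays had received factors that the labels call SKO and place in the process of making induced pluripotent stem cells. The other 6 arrays had no SKO, and the labels put these, and only these, in a Group2 that they do not explain. What that group stands for and SKO cannot be told apart. Within each arm the cells had received blank virus, microRNA cluster B or microRNA cluster C, and were lysed at day 4 or day 8 after the first infection. These groups and days come from the sample titles and characteristics. A free-text label that is identical on all 12 samples names another cell sample and day, and was not used. Each of the 12 combinations has 1 array, so a value per condition has no replicate of its own. The cultures were infected populations and not clones, and feeder cells had been removed before extraction.

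MicroRNAs are cut from hairpins in longer primary transcripts and loaded into Argonaute proteins. The loaded strand pairs with messenger RNAs mainly through its seed, the bases near its 5′ end, and lowers their stability and translation. Hairpins often lie in clusters that share 1 primary transcript, or in introns of other genes. Embryonic stem cells are known for microRNAs with seeds of the AAGUGC type, fibroblasts for let-7, Mir143 with Mir145a and the Mir199a with Mir214 pair. A whole-transcript array reads RNA that holds the hairpin sequence. Whether these probe sets also read the mature strand was not tested.

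Most of the microRNA genes gave dim signals. Their mean log2 level over the 12 arrays ran from 1.3 to 8.82 with a median of 3.57, against a median of 5.32 over all 19938 genes. The mean exceeded 3.9, the lower quartile of all gene means, for 121 of the 286, and 132 stayed at or below it on every array. The brightest probe sets, whose signals also depend on their probes, were those of Mir692-1 at 8.82, Mir320 at 7.64, Mir341 at 7.38, Mir328 at 7.07 and Mir598 at 7.07. After the fitted effects the median residual SD was 0.187 for the microRNA genes and 0.152 for all genes.

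The arrays themselves had medians between 4.98 and 5.07. Pou5f1, which encodes Oct4, read 11.60 to 12 with SKO and 3.35 to 4.56 without it. The median of 6 pluripotent markers was 3.59 to 6.68 with SKO and 3.91 to 4.19 without. Each of these (Nanog, Dppa5a, Tdgf1, Esrrb, Zfp42 and Dppa3) overlapped between the arms. Of 8 fibroblast markers, 6 were lower on every array with SKO than on any without (Col1a1, Col1a2, Col3a1, Pdgfra, Pdgfrb and Fn1), and Thy1 and Vim overlapped. The median over the 8 was 10.69 to 11.03 with SKO and 11.61 to 11.88 without. The median of 5 epithelial markers was 5.05 to 7.40 with SKO and 4.58 to 5.38 without. Among the 5, Cdh1, Epcam and Krt8 were higher on every array with SKO than on any without, and Krt18 and Cldn4 overlapped. The part of the markers in the results that follow was not tested. In bulk RNA, fewer cells of a type and less RNA per cell cannot be told apart.

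The sequences that tie the endogenous genes to the delivered clusters are shown first, because several of the genes that differed most carry the same seeds. Of the 286 genes, 248 matched a hairpin of the RefSeq microRNA table (build GRCm38.p6), and the sequences below are from that table. Capitals mark the seed, bases 2 to 8 from the 5′ end.
mmu-miR-17-5p: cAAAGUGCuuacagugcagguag
mmu-miR-20a-5p: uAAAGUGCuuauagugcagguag
mmu-miR-93-5p: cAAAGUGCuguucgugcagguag
mmu-miR-106b-5p: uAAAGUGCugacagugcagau
mmu-miR-106a-5p, of a left-out gene: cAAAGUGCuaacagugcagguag
mmu-miR-20b-5p, of a left-out gene: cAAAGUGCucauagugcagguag
mmu-miR-18a-5p: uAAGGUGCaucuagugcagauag
mmu-miR-18b-5p, of a left-out gene: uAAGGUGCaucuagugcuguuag
mmu-miR-19a-3p: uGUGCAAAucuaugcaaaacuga
mmu-miR-19b-3p: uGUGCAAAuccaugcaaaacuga
mmu-miR-302b-3p, of a left-out gene: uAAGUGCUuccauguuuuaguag
Mir19b-1 and the left-out Mir19b-2 give the same mature strand, miR-19b-3p. In all, 10 of the 286 genes shared a seed with a microRNA of the left-out groups. None carried the miR-302b-3p seed AAGUGCU, and 5 held AAGUGC somewhere within the seed.

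Comparing SKO with no SKO asked which microRNA genes differ between the cells given the factors and those without them. A gene is said to have passed where limma's Benjamini-Hochberg adjusted p over all 19938 genes was under 0.05. Differences are log2 values averaged over the 3 viruses, 3 arrays against 3, and their errors are limma's SE. At day 4, 8 microRNA genes rose and 31 fell, 13.6% of the 286, while 18.9% of all genes passed (9.52% higher, 9.4% lower). At day 8, 11 rose and 29 fell, 14% against 26.1% of all genes (13.4% higher, 12.7% lower). The share of microRNA genes that fell at day 4, 10.8%, thus lay near the share of all genes that fell, and the share that rose, 2.8%, lay below that of all genes. The median difference over the 286 was -0.088 at day 4 and -0.139 at day 8, beside -0.0356 and -0.0689 over all genes. With quantile normalization the day 4 calls split into 14 higher and 31 lower.

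Both days shared 18 passing genes, 8 higher and 10 lower, which is 46.2% of the day 4 calls and 45.0% of the day 8 calls. None passed in opposite directions. The same overlap over all genes is not given here, so these shares have no background to be read against. The 8 that rose at both days were Mir18, Mir19a, Mir19b-1, Mir20a, Mir568, Mir687, Mir6516 and Mir15a. With each of the 12 arrays left out in turn, 21 of the 39 day 4 calls and 11 of the 40 day 8 calls were kept in all 12 fits, and no difference changed sign. Of the passing genes, 18 at day 4 and 11 at day 8 had a mean under the lower quartile of all gene means. Only 3 genes (1.05%) lay higher on all 6 arrays with SKO than on any array without, Mir19a, Mir568 and Mir687, while 7.48% of all genes did. In the other direction 15 genes (5.24%) lay lower on all 6, beside 7.1% of all genes.

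**Figure D1:**
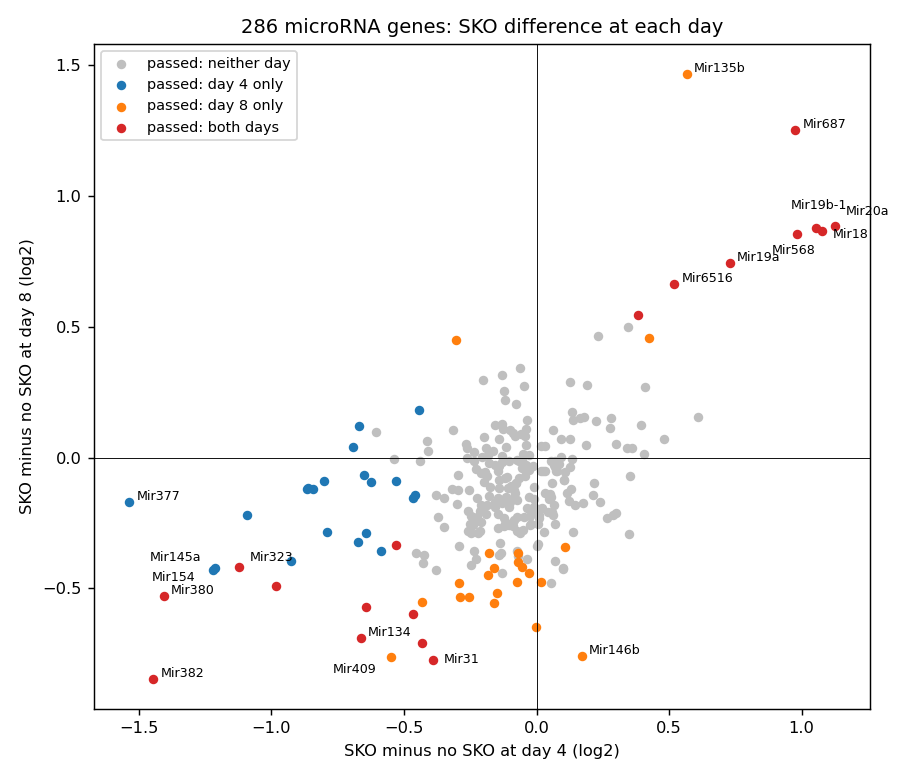
Each point is 1 of the 286 microRNA genes, placed by its log2 difference between 3 arrays with SKO and 3 without at day 4 (x axis) and at day 8 (y axis), and coloured by the day at which its adjusted p was under 0.05. The upper right holds the 8 genes that rose at both days, and Mir135b stands at 1.47 on the day 8 axis. The lower left holds Mir382 and most of the other genes of the chromosome 12 locus.

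The genes of the Mir17 locus rose with SKO. They lie within 1 kb on chromosome 14 (chr14:115043671-115044391, plus strand, GRCm38.p6) inside the host transcript Mir17hg, which is known as a target of Myc and promotes cell cycle entry. Of the 5 measured, Mir18, Mir19a, Mir20a and Mir19b-1 passed higher at both days, and Mir17 itself did not pass. The median of the 5 was 1.05 at day 4 and 0.87 at day 8. Of these 5 genes, 3 had a mean under the lower quartile of all gene means.

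In the order blank virus, cluster B, cluster C, Mir20a read 3.79, 4.47 and 4.26 with SKO at day 4 and 2.98, 3.09 and 3.09 without. Its day 8 levels were 4.46, 4.41 and 5.03 with SKO and 3.92, 3.50 and 3.82 without. Within each day the groups did not overlap, and Mir20a was higher by 1.13 ± 0.17 at day 4 (adjusted p = 0.001706) and by 0.88 ± 0.17 at day 8 (adjusted p = 0.004752). Mir18 read 4.41, 4.82 and 4.97 against 3.89, 3.48 and 3.59 at day 4, and 4.80, 4.57 and 5.77 against 4.52, 4.16 and 3.86 at day 8. The SKO and cluster C array at day 8 gave the highest level of Mir18, Mir19a and Mir20a among the 12. Mir18 differed by 1.08 ± 0.18 at day 4 (adjusted p = 0.003096) and by 0.87 ± 0.18 at day 8 (adjusted p = 0.007262). The day 8 call of Mir18 was lost without the SKO and cluster C array (0.63, adjusted p = 0.05096) and without the cluster C array lacking SKO (0.74, adjusted p = 0.05775).

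Mir19a separated the arms on every array. It read 2.97, 3.04 and 3.24 with SKO against 2.58, 2.34 and 2.14 without at day 4. The day 8 arrays gave 3.50, 3.33 and 3.86 against 2.81, 2.79 and 2.86. No array without SKO reached the lowest array with it. All these levels lay under the lower quartile of gene means, so they are dim. The difference was 0.73 ± 0.12 at day 4 (adjusted p = 0.003144) and 0.75 ± 0.12 at day 8 (adjusted p = 0.002023), and both calls were kept in all 12 fits that left out 1 array.

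Mir19b-1 spread more widely, from 3.60 to 4.81 over the 6 arrays with SKO and from 2.61 to 3.98 over the 6 without. It was higher by 1.05 ± 0.22 at day 4 (adjusted p = 0.009393) and by 0.88 ± 0.22 at day 8 (adjusted p = 0.01725). The day 4 call was lost without the SKO and cluster B array (0.72, adjusted p = 0.05611) and without the cluster C array lacking SKO (0.83, adjusted p = 0.07486), and the day 8 call without the day 8 arrays of SKO with cluster C (0.75), SKO with blank virus (0.67), and cluster B (0.67) or blank virus (0.87) lacking SKO, with adjusted p of 0.0745 to 0.1216. Mir17 read 3.59, 3.86 and 3.69 with SKO against 3.06, 3.26 and 3.58 at day 4, and 3.23, 3.90 and 3.87 against 3.43, 3.04 and 3.72 at day 8. Its differences of 0.41 (adjusted p = 0.08136) and 0.27 (adjusted p = 0.203) missed the threshold, and its groups overlapped at day 8. The host Mir17hg ran from 3.60 to 5.14 with SKO and from 2.24 to 4.37 without, and its day 4 difference of 1.09 also missed the threshold (adjusted p = 0.1179). Myc, known to bind this locus, read 7.98 to 8.37 with SKO and 6.62 to 7.62 without. Whether Myc has a part in these differences was not tested.

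**Figure D2:**
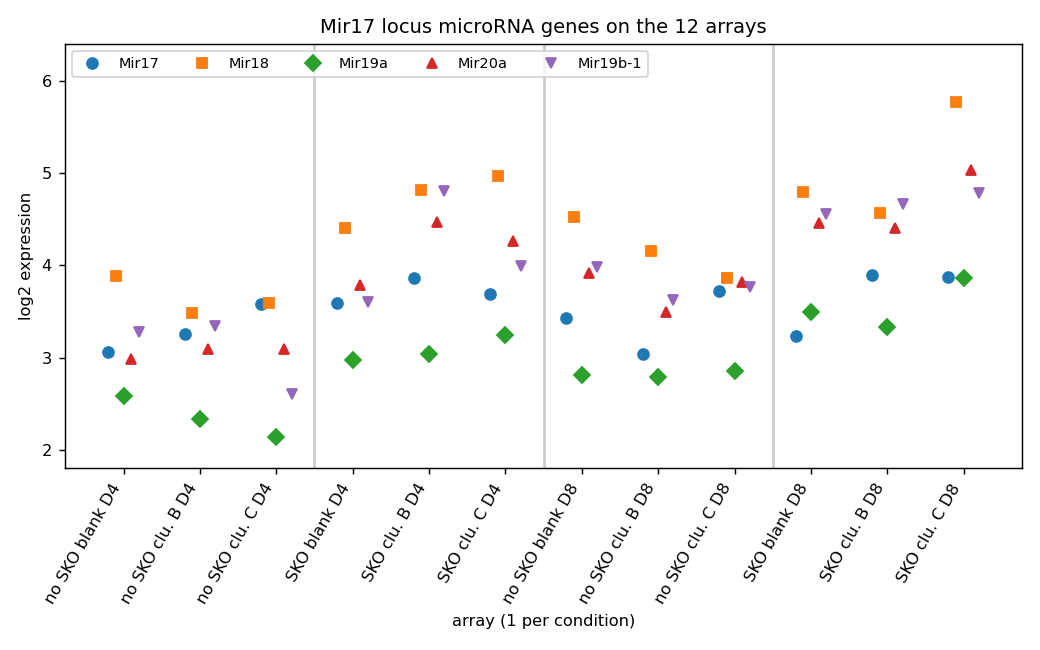
Log2 expression (y axis) of the 5 measured Mir17 locus genes on each of the 12 arrays (x axis, 1 array per condition, grey lines between day and SKO groups), with 1 symbol per gene. Mir19a reads no lower than 2.97 with SKO and no higher than 2.86 without it, and Mir18 reaches 5.77 with SKO and cluster C at day 8.

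The other genes with such seeds did not pass. Mir106b, Mir93 and Mir25 lie in an intron of Mcm7 (chr5:138165321-138165818, minus strand), a helicase subunit gene needed for DNA replication. None of the 3 passed at either day. Mir93 differed by 0.34 at day 4 (adjusted p = 0.06591), Mir106b by 0.30 (adjusted p = 0.1558) and Mir25 by -0.03. Their host Mcm7 rose by 0.96 at day 4 (adjusted p = 0.0006234) and 0.53 at day 8 (adjusted p = 0.01172). Mir25, Mir32 and Mir92b share the seed AUUGCAC with miR-363-3p, miR-367-3p and miR-92a-3p, and none of the 3 passed. Thus 4 of the 10 genes that share a seed with the left-out groups rose at each day, all of them at the Mir17 locus, and none fell. Over all genes 9.52% rose at day 4 and 13.4% at day 8. Neighbouring hairpins can share a transcript, so these 4 are not independent measurements. Whether the seed has a part in their rise was not tested.

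At day 4 most of the falling genes came from 1 imprinted locus, between Dlk1 and Dio3 on chromosome 12. Its maternal allele is known to give the non-coding RNAs Meg3, Rian and Mirg, which carry the microRNA hairpins, and the locus is known as a place where induced pluripotent lines can be silenced. Of the 286 genes, 40 belong to it. At day 4, 19 of the 40 fell (47.5%), beside 9.4% of all genes. All 40 differences lay below 0, and their median was -0.49, beside -0.04 over all genes. At day 8, 8 of the 40 fell (20.0%), beside 12.7% of all genes. Of the 40, 38 lay below 0, and the median was -0.28, beside -0.07 over all genes. Among the 246 other microRNA genes, 12 fell at day 4 (4.88%) and 21 at day 8 (8.54%), with medians of -0.07 and then -0.10. RNA from neighbouring hairpins can come from shared transcripts, so these 40 are not independent measurements.

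RefSeq places 39 of the 40 on the plus strand of chr12:109571990-109743496. A stretch of 90.8 kb without measured hairpins divides them into 10 and 29. Of the 10 before it only Mir136 passed at day 4, and their median was -0.25. Of the 29 after it 18 passed, with a median of -0.64. At day 8 none of the 10 and 8 of the 29 passed, with medians of -0.27 and -0.28.

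Mature strands of the 4 genes of this locus with the largest day 4 falls are shown with the seed in capitals, since their seeds differ from one another although the genes fell together.
mmu-miR-377-3p: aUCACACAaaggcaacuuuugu
mmu-miR-382-5p: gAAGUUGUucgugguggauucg
mmu-miR-380-3p: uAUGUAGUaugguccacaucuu
mmu-miR-154-5p: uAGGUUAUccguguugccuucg

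Mir382 was low at both days with SKO. In the order blank virus, cluster B, cluster C it read 4.76, 4.91 and 4.69 with SKO against 6.41, 6.06 and 6.23 at day 4. At day 8 it read 5.46, 5.22 and 5.22 against 6.08, 6.20 and 6.16. The 6 arrays with SKO lay below the 6 without, and the difference was -1.45 ± 0.12 at day 4 (adjusted p = 6.934e-05) and -0.85 ± 0.12 at day 8 (adjusted p = 0.00104).

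Mir377, by contrast, differed by day. With SKO it read 3.88, 3.74 and 3.55 at day 4 and 3.40, 3.39 and 2.99 at day 8. Without SKO its day 4 levels were 5.29, 5.09 and 5.39, and those of day 8 were 3.22, 3.58 and 3.49. The groups stood apart at day 4 and overlapped at day 8. Its levels with SKO, and those at day 8 without, lay under the lower quartile of gene means, so they are dim. The day 4 difference was -1.54 ± 0.12 (adjusted p = 4.716e-05), and that at day 8 was -0.17 and did not pass.

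Mir380 read 2.68, 2.73 and 2.67 with SKO against 3.91, 3.79 and 4.59 without at day 4, a fall of 1.41 on the log2 scale (SE 0.15, adjusted p = 0.0002475). All 3 arrays with SKO were under the lower quartile of gene means, so its level there is a dim one. Mir154 differed by -1.22, Mir323 by -1.12, Mir300 by -1.09, Mir487b by -0.98, Mir541 by -0.93 and Mir329 by -0.86 at day 4, and all 6 passed and kept their calls with any 1 array left out. At day 8, Mir382, Mir409 (-0.76), Mir134 (-0.69), Mir412 (-0.55) and Mir380 (-0.53) were among the 8 genes of the locus that fell (Mir412 was chosen after its values were seen). The Mir409 call was lost without the SKO and cluster B array (-0.53, adjusted p = 0.06283) and without the cluster C array lacking SKO (-0.58, adjusted p = 0.07999), and Mir412 and Mir380 kept their day 8 calls in 6 and 8 of the 12 fits, with largest adjusted p of 0.2135 and 0.194. Mir540, with differences of -0.04 and 0.08, moved least.

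The long transcripts of the locus were lower as well. Meg3 read 7.79 to 8.26 with SKO and 8.98 to 9.5 without. Rian, which holds Mir341 and Mir370, read 5.40, 5.42 and 5.65 with SKO against 6.73, 6.98 and 7.04 at day 4, and 5.11, 5.11 and 5.34 against 6.16, 6.02 and 5.68 at day 8. Rian differed by -1.43 (adjusted p = 0.0001515) and -0.77 (adjusted p = 0.003775), while Mir341 (-0.14 and -0.33) and Mir370 (-0.35 and -0.27) did not pass. The paternally expressed Dlk1, a gene of the same locus, ran from 6.58 to 8.15 with SKO and from 8.40 to 10.17 without. Rtl1, which is also paternally expressed, was not lower: it differed by 0.33 at day 4 (adjusted p = 0.0529) and 0.35 at day 8 (adjusted p = 0.03228).

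**Figure D3:**
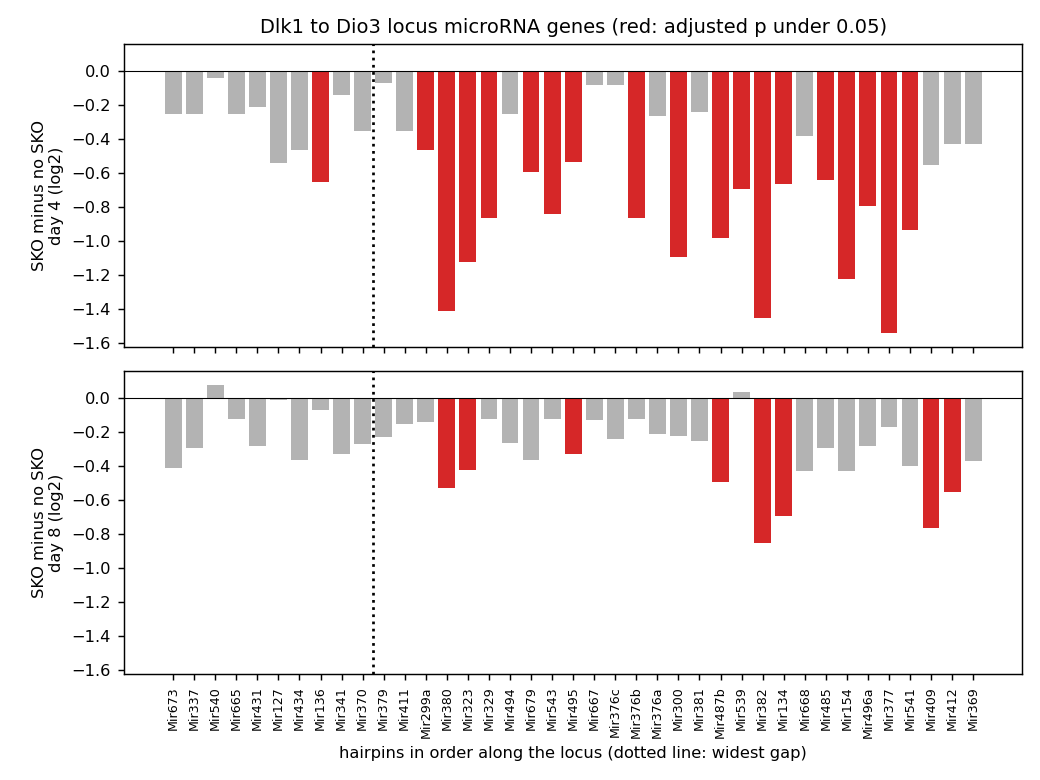
Log2 differences between arrays with and without SKO (y axis, bars from 0) for the 39 placed microRNA genes of the Dlk1 to Dio3 locus in their order along the chromosome (x axis, not to scale), at day 4 (top) and day 8 (bottom), with passing genes in red. Of the 10 bars left of the dotted gap 1 is red at day 4, and of the 29 to its right 18 are.

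Of 16 genes known from fibroblasts and other mesenchymal cells, 4 fell and none rose at day 4 (Mir145a, Mir125b-1, Mir143 and Mir31), beside 9.4% of all genes lower. At that day 12 of the 16 lay below 0, with a median of -0.10 beside -0.04 over all genes. At day 8, 3 fell and 1 rose, beside 12.7% of all genes lower and 13.4% higher, and 8 of the 16 lay below 0, with a median of 0.02 beside -0.07. Of the 8 fibroblast markers, 6 were lower with SKO, as given above, and their part in these values was not tested.

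Mir143 and Mir145a are made from 1 transcript and are known for smooth muscle and myofibroblast states. Mir145a read 4.98, 5.28 and 5.02 with SKO against 6.17, 6.27 and 6.47 at day 4, in the order blank virus, cluster B, cluster C. At day 8 it read 4.67, 4.53 and 4.58 against 5.41, 4.80 and 4.83. The day 4 difference was -1.21 ± 0.17 (adjusted p = 0.001041), and the day 8 difference of -0.42 did not pass. Mir143 read 5.01, 4.82 and 5.10 against 5.21, 5.96 and 5.77 at day 4, lower by 0.67 on the log2 scale with adjusted p = 0.003886. Its day 8 levels, 4.27, 4.56 and 4.43 against 3.93, 4.61 and 4.35, overlapped and did not differ beyond their spread.

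Mir125b-1 lies with Mir100 in the transcript Mir100hg. It read 5.0, 4.98 and 5.0 with SKO against 6.0, 5.54 and 5.84 at day 4, a difference of -0.80 ± 0.098 (adjusted p = 0.0004964). Mir100 in the same transcript differed by -0.08, at a mean level of 2.51. Mir100hg differed by -0.57 (adjusted p = 0.0251).

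Mir31, which is known from mesenchymal cells and from tumour invasion, differed more at day 8 than at day 4, a gap between the days that did not pass. Mir31 lies on the same strand in the non-coding Gm49890, which was not measured here. The mature strand of Mir31 is shown because this gene fell at both days.
mmu-miR-31-5p (chr4:88910614-88910635, minus strand): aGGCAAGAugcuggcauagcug
It read 4.12, 4.00 and 4.02 with SKO against 4.50, 4.30 and 4.51 at day 4, and 3.95, 3.83 and 3.91 against 4.75, 4.64 and 4.60 at day 8. No array with SKO reached the lowest without it. The difference was -0.39 ± 0.098 at day 4 (adjusted p = 0.02281) and -0.77 ± 0.098 at day 8 (adjusted p = 0.0004245). The day 4 call was kept in 6 of the 12 fits that left out 1 array, with a largest adjusted p of 0.1436, and the day 8 call in all 12. Mir27a was the 1 gene of the list that rose, by 0.46 at day 8 (adjusted p = 0.03551), a call kept in 7 of the 12 fits with a largest adjusted p of 0.1973.

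Mir135b showed the largest rise at day 8. It is a gene known for acting on Wnt pathway and osteogenic targets, and it lies on the same strand within Lemd1. At day 4 it read 4.10, 4.55 and 3.86 with SKO against 3.40, 4.09 and 3.32, in the order blank virus, cluster B, cluster C. At day 8 it read 5.33, 5.16 and 4.93 against 3.58, 3.53 and 3.91. The day 8 groups were more than 1 log2 unit apart at their nearest arrays, and the difference was 1.47 ± 0.20 (adjusted p = 0.000775), kept in all 12 fits. The day 4 difference of 0.57 did not pass. Lemd1 differed by 0.46 at day 4 (adjusted p = 0.02934) and 0.76 at day 8 (adjusted p = 0.001764).

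Mir568 and Mir687 stood apart at both days. Mir568, which lies opposite to Tigit, read 4.25 to 4.79 with SKO and 3.58 to 3.77 without, and differed by 0.98 ± 0.14 (adjusted p = 0.001287) and 0.86 ± 0.14 (adjusted p = 0.002036). Tigit, the gene of an inhibitory receptor on T and NK cells, differed by 0.18 and -0.16 and did not pass. Mir687 read 2.47 to 3.55 with SKO and 1.76 to 2.22 without, all under the lower quartile of gene means. It differed by 0.98 ± 0.24 at day 4 (adjusted p = 0.02082) and 1.25 ± 0.24 at day 8 (adjusted p = 0.004687). The day 4 value was 0.55 without the SKO and cluster B array, and the day 4 call was lost in 5 of the 12 fits, with adjusted p up to 0.09451. Mir687 lies within Rb1, the retinoblastoma cell cycle gene, which read 7.92 to 8.70 with SKO and 5.18 to 6.43 without.

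Mir15a and Mir16-1 sit side by side on chromosome 14 and share a seed, and at day 8 one rose and the other fell. They are known as a pair that restrains Bcl2 and cyclins. Mir16-1 falls outside the naming rule and was chosen after its values were seen.
mmu-miR-15a-5p (chr14:61632075-61632096, minus strand): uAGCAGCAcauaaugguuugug
mmu-miR-16-5p (chr14:61631936-61631957, minus strand): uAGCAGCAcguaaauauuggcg
Mir15a read 5.70, 5.5 and 5.70 with SKO against 5.07, 5.17 and 5.03 at day 8, a rise of 0.55 (adjusted p = 0.005186). Mir16-1 read 3.62, 3.15 and 3.39 against 4.08, 3.81 and 3.59, a difference of -0.44 (adjusted p = 0.03196). The Mir16-1 groups overlapped, and its call was kept in 7 of the 12 fits, with a largest adjusted p of 0.1817. Mir15a kept its day 8 call in 11, and lost it without the SKO and blank virus array (0.45, adjusted p = 0.05253). Its day 4 rise of 0.38 (adjusted p = 0.03484) was kept in 6, with a largest adjusted p of 0.192. The strand miR-16-5p is also given by Mir16-2, so these values do not give the level of mature miR-16.

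**Figure D4:**
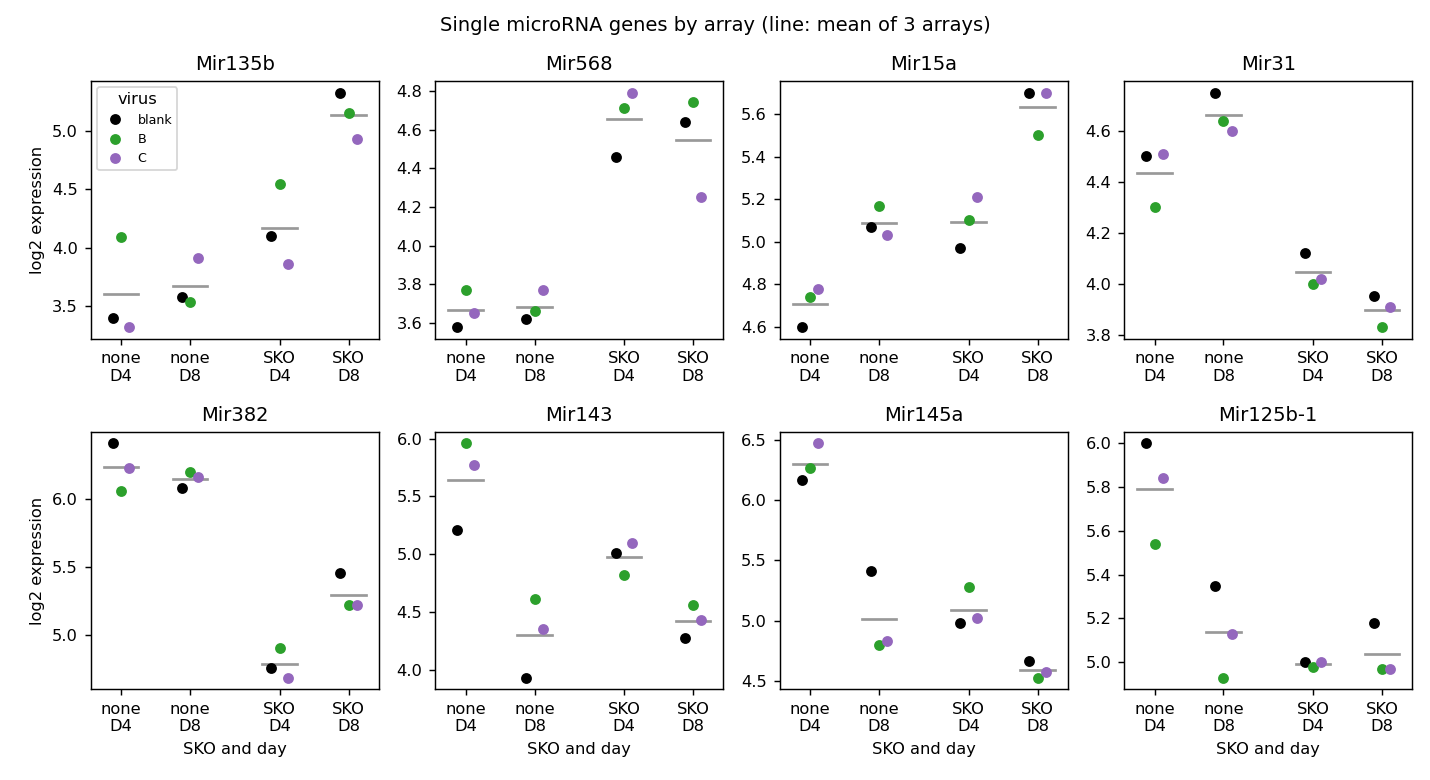
Log2 expression (y axes, scaled per panel) of 8 microRNA genes in the 4 combinations of SKO and day (x axis), with 1 point per array coloured by virus and a grey line at the mean of 3 arrays. Mir135b reaches 4.93 to 5.33 with SKO at day 8, Mir31 and Mir382 lie lower on every array with SKO, and Mir143, Mir145a and Mir125b-1 are highest without SKO at day 4.

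Mir6516, which lies in the non-coding Snhg20, rose by 0.52 at day 4 (adjusted p = 0.009393) and 0.66 at day 8 (adjusted p = 0.001857). The day 4 call was kept in 9 of the 12 fits that left out 1 array and the day 8 call in all 12. Mir146b, an NF-kappaB target that dampens Toll-like receptor signalling, fell by 0.76 at day 8 on the log2 scale. It read 3.93, 3.79 and 3.71 with SKO against 4.52, 4.55 and 4.65 at that day (adjusted p = 0.004513), and 4.31, 3.91 and 4.60 against 3.89, 4.13 and 4.28 at day 4, where the groups overlapped. Mir532 fell by 0.71 at day 8 (adjusted p = 0.001115) and by 0.43 at day 4 (adjusted p = 0.02009), the latter kept in 7 of the 12 fits. Mir188, Mir362, Mir500 and Mir501 lie with it in Clcn5 on the X chromosome and did not pass at either day, while Clcn5, a chloride transporter gene, differed by -0.49 (adjusted p = 0.008051) and -0.41 (adjusted p = 0.01497).

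The remaining large falls at day 8 were those of Mir138-2 (-0.65), Mir338 (-0.60), Mir124a-3 (-0.57) and Mir185 (-0.56). Their day 8 calls were kept in 8, 9, 7 and 10 of the 12 fits that left out 1 array, with largest adjusted p of 0.07155, 0.062, 0.1131 and 0.06619. Mir124a-3, known from neurons, read 3.11 to 3.33 with SKO and 3.57 to 4.04 without. Its levels lie under or near the lower quartile of gene means.

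Some families that are known to change during reprogramming had few measured genes, and few or none of these passed. Over all genes 18.9% passed at day 4 and 26.1% at day 8, so counts this small do not show a lack of change. The let-7 family, known for opposing Lin28 and the stem cell state, had 10 measured genes. At day 4, 9 of the 10 lay below 0 with a median of -0.29, beside -0.04 over all genes, and 1 passed, Mirlet7i. At day 8 none passed, and the median was -0.04 beside -0.07 over all genes, or 0.01 with quantile normalization. Mirlet7i read 5.47, 5.23 and 5.46 with SKO against 5.61, 6.20 and 5.74 at day 4 (-0.47, adjusted p = 0.0108), a call kept in 8 of the 12 fits with a largest adjusted p of 0.07619. Mirlet7f-1 had the lowest day 4 value, -0.61, and did not pass, and Mir98 the highest, 0.22.

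The Mir200 family holds epithelial cells in their state by repressing Zeb1 and Zeb2. None of its 4 measured genes passed at day 4 or day 8, beside 18.9% and 26.1% of all genes. Mir200a, Mir200b, Mir200c and Mir141 had median differences of 0.08 and -0.04, and the median level of the 4 lay between 2.79 and 3.15 on all 12 arrays. On the same arrays the epithelial gene Cdh1 read 5.05 to 7.19 with SKO and 4.06 to 4.61 without. Epcam read 4.95 to 7.85 against 3.77 to 4.32, and Krt8 6.57 to 8.82 against 5.72 to 6.45. The other epithelial markers overlapped between the arms. Krt18 read 4.64 to 7.4 against 4.79 to 5.59, and Cldn4 4.81 to 7.24 against 4.58 to 5.38. At those low microRNA levels a change may not have been detectable.

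The 3 genes of the Mir34 family, which are p53 targets, did not pass at either day. All 3 had a mean under the lower quartile of all gene means. The list of genes known from other cell types (blood, endothelium, muscle, neurons, liver and endocrine cells) had 22 measured genes. Of these 22, 2 fell at day 4 and 1 at day 8, and none rose. Over all genes 9.4% fell and 9.52% rose at day 4, and 12.7% fell and 13.4% rose at day 8. Of the 22, 17 had a mean under the lower quartile of all gene means. Among 6 genes of the Hox clusters none passed at day 4, and at day 8 Mir615 fell by 0.40 on the log2 scale (adjusted p = 0.04567), kept in 5 of the 12 fits with a largest adjusted p of 0.2532. Genes of the Mir290 to Mir295 group, the main microRNAs of mouse embryonic stem cells, were not analysed here.

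Comparing day 8 with day 4 in each arm asked which genes change over time with and without the factors. With SKO, 5 microRNA genes rose and 1 fell (2.1%, beside 8.9% of all genes, 5.24% higher and 3.66% lower). With the arrays set to equal medians, 2 rose and 4 fell. Mir135b rose by 0.97 (adjusted p = 0.02095), Mir15a by 0.54 (adjusted p = 0.01529), Mir382 by 0.51 (adjusted p = 0.03628), Mir19a by 0.48 (adjusted p = 0.04346) and Mir677 by 0.41 (adjusted p = 0.04717). Mir143 fell by 0.56 (adjusted p = 0.02019). None of the 6 kept its call in all 12 fits that left out 1 array: Mir135b and Mir143 did so in 8, Mir15a in 6, Mir19a and Mir382 in 4, and Mir677 in none. Mir377 (-0.46, adjusted p = 0.05242) and Mir145a (-0.50, adjusted p = 0.1089) missed the threshold.

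Without SKO, 6 rose and 14 fell (6.99%, beside 8.68% of all genes, 4.05% higher and 4.63% lower). Of the 14, 9 belong to the Dlk1 to Dio3 locus, which is 22.5% of its 40 genes, beside 2.03% of the other 246. Mir377 fell by 1.83 (adjusted p = 7.643e-05), Mir143 by 1.35 (adjusted p = 0.0003344), Mir145a by 1.29 (adjusted p = 0.003021), Mir380 by 0.86 (adjusted p = 0.01072) and Mir543 by 0.81 (adjusted p = 0.005408). Each of these 5 was lower at day 8 with all 3 viruses, and all but Mir380 kept the call in all 12 fits. Mir380 lost it without either cluster C array lacking SKO (-0.70, adjusted p = 0.07604). The largest rises were those of Mir199a-1 (0.85), Mir20a (0.70), Mir328 (0.49), Mir504 (0.47) and Mir483 (0.46), kept in 8, 4, 4, 6 and 4 of the 12 fits, with largest adjusted p of 0.07658, 0.1861, 0.1923, 0.129 and 0.1558.

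The test of the difference between the 2 time courses called 7 microRNA genes (2.45%, beside 2.97% of all genes, 1.97% higher and 1.0% lower). Mir377, Mir143, Mir376b, Mir329, Mir125b-1 and Mir323 fell over time without SKO, and their change with SKO was higher. Mir146b differed by 0.47 over time without SKO and by -0.46 with it, neither of which passed on its own. Mir377 changed by -1.83 without SKO, and its -0.46 with SKO missed the threshold. The gap was 1.37 (SE 0.175) (adjusted p = 0.005471). Mir377 alone kept the call in all 12 fits that left out 1 array. Its only levels above the lower quartile of gene means were those without SKO at day 4. Mir376b read 2.53, 2.62 and 2.40 without SKO at day 4 and between 1.54 and 1.92 on the 9 other arrays. All levels of Mir376b lay under the lower quartile of gene means, so they are dim. Mir329 read 5.39, 5.52 and 5.47 without SKO at day 4, and between 4.43 and 4.87 elsewhere. In both genes the 3 arrays without SKO at day 4 stood above the rest.

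Comparing each cluster with blank virus asked whether delivery of a cluster went with changes in other microRNA genes. No microRNA gene passed in any of the 4 comparisons, under limma or any alternative run. With SKO, 0.0201% of all genes passed for cluster C (0.015% higher, 0.00502% lower) and 0.01% for cluster B (0.00502% higher, 0.00502% lower), and without SKO 0.0% passed for either. With SKO, an unadjusted p under 0.05 was found for 16 of the 286 (5.59%, beside 6.82% of all genes) for cluster C and for 11 (3.85%, beside 3.08%) for cluster B. Without SKO it was found for 23 (8.04%, beside 4.72% of all genes) and 24 (8.39%, beside 5.86%). These comparisons set 2 arrays against 2, and the comparisons of both clusters share the blank virus arrays.

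The delivered genes themselves were visible. Mir302b, of the first left-out group, read 7.08 and 7.15 on the SKO and cluster C arrays at days 4 and 8, and 5.82 and 2.86 on the cluster C arrays without SKO, against 1.51 to 2.32 on the 8 others. Mir363, of the second group, read 5.36 and 5.13 on the SKO and cluster B arrays and 3.98 and 3.08 on those without SKO. Without SKO both were dimmer at day 8 than at day 4.

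The genes named next missed the threshold. They are the 3 per direction with the largest differences among those with the same sign at both days and a mean above the lower quartile of all gene means. Dimmer genes, such as Mir495 at -0.68 for cluster B without SKO, gave larger values in some of these comparisons and also missed it (Mir495 was chosen after its values were seen). For cluster C with SKO they were Mir300 (0.77), Mir18 (0.76, adjusted p = 0.6411) and Mir323 (0.38) above 0, and Mir409 (-0.62), Mir345 (-0.46) and Mir127 (-0.42) below it. For cluster B with SKO they were Mir19b-1 (0.66, adjusted p = 0.9999), Mir713 (0.56) and Mir191 (0.36), and Mir218-2 (-0.52), Mir673 (-0.52) and Mir551b (-0.39). Without SKO, cluster C gave Mir143 (0.49), Mir423 (0.45) and Mir200a (0.44), and Mir18 (-0.48), Mir152 (-0.46) and Mir19b-1 (-0.44). Cluster B without SKO gave Mir143 (0.72, adjusted p = 0.7099), Mir370 (0.65) and Mirlet7i (0.58), and Mir713 (-0.54), Mir680-2 (-0.51) and Mir125b-1 (-0.44). Mir18 thus stood at 0.76 with SKO and at -0.48 without, and those values were not tested against each other. Mir19b-1 gives the same mature strand as the delivered Mir19b-2, which read 3.20 and 2.99 with SKO and cluster B and between 1.85 and 2.16 on the 4 other arrays with SKO.

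Many microRNA genes lie inside other genes, and the array measured both. RefSeq places 119 of the 286 in a gene on the same strand, and for 90 of them that host was measured, in 71 hosts. Hosts for which the source used gave no strand, such as Rtl1, Smc4 and Rb1, are not counted. Across these 90 pairs Pearson's r between the host's and the microRNA gene's SKO difference was 0.45 at day 4 and 0.25 at day 8, given as a description, since pairs share arrays and some share hosts. The host passed for 32 of the 90 at day 4 and the microRNA gene for 4, both for 2. At day 8 the host passed for 34, the microRNA gene for 11 and both for 5, of which 4 had the same sign.

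Mir687 is not among these pairs, because the source used gave no strand for Rb1. It rose at both days, as did Rb1 around it, by 2.37 and 2.41. For the same-strand hosts that differed by over 1 log2 unit, the hairpin probe sets differed less. Mir717, Mir204 and Mir490 had means of 1.82, 2.24 and 2.53, under the lower quartile of all gene means (3.9). At those levels a change may not have been detectable. The means of Mir335, Mir483, Mir152, Mir341 and Mir370, which also have such hosts, lay above it. Mir717 lies in Gpc3, a growth-restraining proteoglycan gene, which read 7.04 to 7.29 with SKO and 8.95 to 9.30 without. Gpc3 differed by -1.95 and -1.82, and Mir717 by -0.03 and -0.26. Mir335 lies in Mest, an imprinted gene that differed by -1.12 and -2.29, while Mir335 differed by -0.22 and -0.29. Mir483 lies in Igf2, an imprinted growth factor gene. Igf2 read 9.27, 9.14 and 9.16 with SKO against 10.24, 10.48 and 10.62 at day 4, and 8.56, 8.69 and 8.44 against 10.84, 10.75 and 10.80 at day 8. Igf2 differed by -1.26 and -2.23, and Mir483 by 0.02 and then by -0.47, which passed (adjusted p = 0.01241) and was kept in 8 of the 12 fits with a largest adjusted p of 0.08727.

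Mir204 lies in Trpm3, an ion channel gene that rose by 1.57 and 1.38, and differed by 0.14 and -0.29. Mir490 lies in Chrm2, a muscarinic receptor gene that rose by 1.18 and 1.27, and differed by 0.35 and -0.29. Mir152 lies in Copz2, a vesicle coat gene. Copz2 differed by -0.87 and -1.20, and Mir152 by -0.18 and -0.45, the second of which passed (adjusted p = 0.04538) and was kept in 3 of the 12 fits with a largest adjusted p of 0.2436. Of the 8 microRNA genes in the 7 same-strand hosts that differed by over 1 log2 unit, none passed at day 4, and Mir483 and Mir152 passed at day 8.

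**Figure D5:**
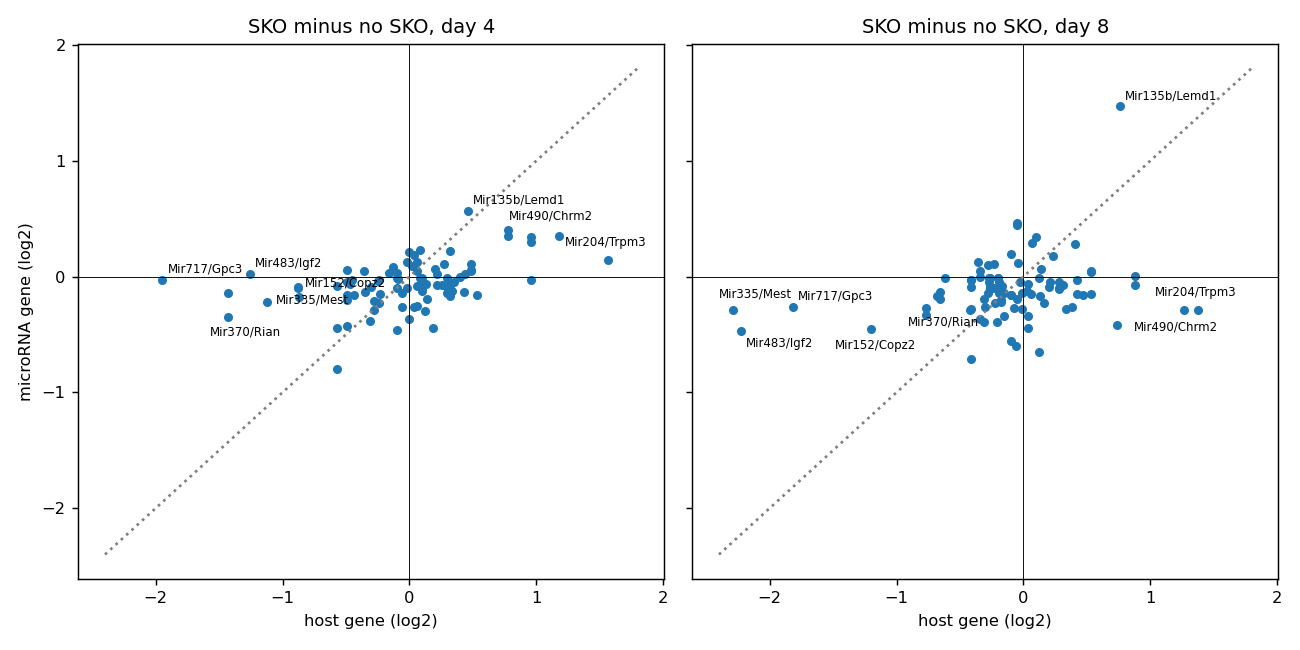
Log2 difference with SKO of the host gene (x axis) and of the microRNA gene inside it (y axis) for 90 same-strand pairs, at day 4 (left) and day 8 (right), with a dotted line where both are equal. Gpc3, Igf2 and Mest lie far left of 0 while Mir717, Mir483 and Mir335 stay between -0.47 and 0.02, and Mir135b lies above the line at day 8.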

How the data were processed

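The authors deposited log2 expression values of 28853 probe sets on 12 Affymetrix whole-transcript arrays, hybridised with biotin-labelled cDNA from 100 ng of total RNA per the labels' protocols. The submitters' processing notes list RMA and Partek and give no version. Their genome build is not given in the sources used here. The log2 unit was read from the values, which run from 0.916 to 14.034. Background and saturation flags were not used here, so dim values may hold background. Precision is limited by how few arrays there are.

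By the platform annotation 21789 probe sets have 1 gene, 1621 have several and 5443 have none. Of each gene the probe set with the highest mean was kept. All 19938 genes were fitted with limma 3.58.1 in R 4.3.3 with terms for SKO, day, virus, SKO by day and SKO by virus (8 coefficients, 4 residual degrees of freedom). SKO effects average the 3 viruses and cluster effects average the 2 days. Calls use Benjamini-Hochberg adjusted p under 0.05 over all genes, and the fit was tested on simulated data. The labels mark the arrays without SKO as Group2 and do not say whether arrays came from separate experiments, so p-values measure the spread left between these arrays after the fitted terms, which may be technical.

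Hosts, positions and mature sequences came from RefSeq tables of build GRCm38.p6. Named genes were the 10 largest passing rises and falls whose sign agreed in all matched array pairs for SKO at each day and for time with SKO, 5 each for the other comparisons, filled to 3 with genes that missed the threshold and had a mean above the lower quartile of all gene means. Further named were the fixed lists, the genes in hosts with differences over 1 log2 unit and the 5 highest levels. The genes and lists were chosen with earlier results of these data known. Alternatives tried were an additive fit, each arm alone, a trended robust prior, arrays set to equal medians, quantile normalization, dim genes left out, other probe set rules, a 1.5-fold limit and each array left out.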

Additional observations from a re-analysis of the deposited data

Results flagged for a closer look

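In all, 7 microRNA genes changed over time in a different way with SKO than without it, by limma's test of that difference over all genes. The day 8 minus day 4 change with SKO, less the same change without SKO, was 1.37 on the log2 scale for Mir377, 0.79 for Mir143, 0.75 for Mir376b, 0.74 for Mir329, 0.71 for Mir125b-1, 0.71 for Mir323 and -0.93 for Mir146b. The sign was the same with all 3 viruses in each of them. Mir377 kept its call with any 1 array left out, Mir146b kept it in 2 of the 12 fits, and the others in none. Groups here have 1 or 3 arrays, so single arrays were not tested as outliers.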

How the results depend on the processing

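The 39 calls for SKO at day 4 stayed within 1.5 times under every alternative run, between 26 and 45. With 1 array left out, calls ran from 26 to 45 for SKO at day 4, from 15 to 46 for SKO at day 8 (40 with all arrays, 15 without the SKO and cluster C array at day 8), from 0 to 9 for time with SKO (6 with all arrays), from 7 to 20 for time without SKO (20 with all arrays) and from 1 to 2 for the difference between the time courses (7 with all arrays). With a limit of 1.5-fold the calls were 16 for SKO at day 8, 1 for time with SKO and 13 for time without SKO. Time with SKO gave 3 calls with that arm fitted alone and 3 with quantile normalization, which gave 11 for the difference between the time courses. The cause was not tested. The 4 cluster comparisons gave 0 calls in every alternative run. No called difference changed sign with an array left out. The Mir17 locus median at day 4 was 0.716 without the SKO and cluster B array, and at day 8 it was 0.674 without the SKO and cluster C array and 1.14 without the SKO and cluster B array. No paired analysis was possible because the labels give no replicate numbers and each condition has 1 array; with 1 array left out, a condition is filled by the fitted terms. Of the 286 genes, 132 never exceeded the lower quartile of gene means.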
